A study of Mus musculus with 24 samples.

Results

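Ligands of the tumor necrosis factor (TNF) superfamily are trimeric proteins, made on the cell membrane or released from it, that bind receptors with cysteine-rich repeats. Some receptors carry a death domain and can start apoptosis, others bind TRAF adaptors and signal to NF-kappaB, and decoy receptors bind ligand without passing on a signal. Macrophages are known to make TNF when Toll-like receptor 4 senses lipid A, and resting B cells depend for survival on the ligand BAFF. The members described here were the gene names on the array that began with Tnfsf or Tnfrsf followed by a digit. They were 33 of 21313 gene symbols, on 48 of 41174 probes: 11 ligand names, 21 receptor names and Tnfsf5ip1. Tnfsf5ip1 (Psmg2) is a proteasome assembly chaperone that is neither ligand nor receptor, and it was counted apart. Of the 33 names, 30 passed the filter on dim probes, 9 ligands, 20 receptors and Tnfsf5ip1, among 17116 genes tested. A gene was tested where its brightest probe was well above background, by the scanner's own call, in both channels of at least 1 condition. Tnfsf11 (RANKL), Tnfsf18 (GITR ligand) and Tnfrsf17 (BCMA) did not pass, and counts of calls below are of members that passed. Another, dimmer probe of Tnfsf11 was above background in both channels of EPM at KLA 1 h, so the name is counted as detected there, and its values are given with those of the dim members.

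Mouse immune cells were exposed to Kdo2-lipid A (KLA), an agonist of Toll-like receptor 4, and their RNA was read on Agilent 2-colour arrays. Cells came from C57BL/6 mice, whose age was not given in the sources used. Each of 12 arrays held 1 condition, with replicate 1 in the Cy5 channel and replicate 2 in the Cy3 channel, and each cell type had its own slide. Thioglycollate-elicited peritoneal macrophages (EPM) were collected 3 days after injection, left overnight to adhere, washed, and treated 24 h after that. Their 4 groups were untreated, KLA for 1 h, DMSO for 12 h and KLA for 12 h. Bone marrow-derived macrophages (BMDM), grown out in culture, had DMSO and KLA groups at both 1 h and 12 h. B cells were splenic cells left after magnetic depletion of CD43-positive and CD11b-positive cells, with untreated, KLA 1 h, DMSO 12 h and KLA 12 h groups. The early control was therefore untreated in EPM and B cells and DMSO in BMDM, so cell type and control cannot be told apart there, nor can cell type and slide. Since a condition was 1 array, array and condition cannot be told apart either, and the tests below measure a difference against the spread between the 2 channels of an array.

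The cell type labels were checked against marker genes. All 8 macrophage markers were well above background in every EPM and BMDM group, with summed intensities of 336300 and 309900 in untreated EPM and 388500 and 340500 in BMDM at DMSO 1 h, mostly from Lyzs (lysozyme). In untreated B cells 5 of the 8 were detected, at sums of 1096 and 1115, and Itgam, Fcgr1 and Msr1 were not above background. All 8 B cell markers were detected in every B cell group, with sums of 207000 and 214800 in untreated B cells and Cd79b the brightest. Untreated EPM and BMDM at DMSO 1 h each had 4 of the 8, at sums of 656.3 and 670.3 in EPM and 3737 and 4010 in BMDM, with Pax5, Blk, Cr2 and Fcer2a not above background.

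The labels of 2 B cell conditions were in conflict. Of the 24 columns of the authors' table of normalized values, 20 were closest to their own channels of the scanner files, with r of at least 0.981 over 17820 probes. The 4 columns for B cells at KLA 1 h and at DMSO 12 h were closest to each other's channels, with r of 0.989 to 0.99, against -0.763 to -0.824 with their own. The scanner labels are used here, and B cell results after KLA are given with these labels and with the labels of the 2 conditions exchanged. The values of untreated B cells, B cells at KLA 12 h and the macrophage groups do not rest on these labels. A further fit took array means, with the 2 control arrays of a cell type as replicates. Its comparisons are thus with the mean of the early and the 12 h control, not with 1 of them. The fit pools the spread of the control pairs of all 3 cell types, and its B cell pair holds an array whose label is in conflict. That fit is therefore also given without the B cell arrays, an alternative chosen after the values were seen.

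At the early controls, a smaller share of ligand names than of receptor names was detected, a difference that was not tested and was small in BMDM. Both channels were well above background, on any probe of the name, for 6 of 11 ligand names and 18 of 21 receptor names in untreated EPM, where the share of all gene symbols was 70.9%. In BMDM at DMSO 1 h, 8 ligands and 16 receptors were detected, against 67.4% of all symbols. In untreated B cells, 3 ligands and 13 receptors were detected, against 62.9%. The ligands detected in B cells were Tnfsf9, Tnfsf13b and Tnfsf14, named after their values were seen.

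Between EPM and BMDM, the ligand names that stood out were Tnfsf12-tnfsf13 and Tnfsf12. Tnfsf12-tnfsf13 is the name of a readthrough transcript of the genes of TWEAK and APRIL. It was read by 1 probe, and since no probe was named Tnfsf13, the readthrough and Tnfsf13 cannot be told apart here. It had log2 levels of 13.22 and 13.39 in untreated EPM, 9.77 and 9.92 in BMDM at DMSO 1 h, and 5.90 and 5.92 in untreated B cells. EPM were high, BMDM lay between, and B cells were not above background, with no overlap of channels. The difference between EPM and BMDM was 3.46 (standard error 0.10, 11-fold, adjusted p = 1.03e-15, limma, n = 2 channels per group). The tests below had the same n, except fits of array means and fits without 1 replicate. Tnfsf12 (TWEAK) was higher in EPM by 2.72 (6.58-fold, adjusted p = 6.03e-17). Tnfsf14 (LIGHT, a ligand of HVEM and of the lymphotoxin beta receptor) was lower in EPM, with a log2 difference of -1.19 (2.29-fold, adjusted p = 1.3e-09). Tnfsf4 (OX40 ligand), at -0.93, and Tnfsf10 (TRAIL, an inducer of apoptosis), at -0.61, were detected in BMDM and not in untreated EPM, so BMDM were at least 1.74-fold and at least 1.48-fold higher. For such an at least fold, a value of the undetected group that lay under the dimmest signal the scanner called well above background in that channel was raised to that signal. Tnfsf9 (4-1BB ligand) was lower in EPM too, at -0.65 (1.57-fold, adjusted p = 4.27e-07).

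Among receptors, the largest difference between EPM and BMDM was smaller than that of the ligands. Tnfrsf12a (Fn14, the receptor of TWEAK) was 1.60 higher in EPM (3.04-fold, adjusted p = 2.94e-11), and Tnfrsf21 (death receptor 6) 1.03 higher (2.04-fold, adjusted p = 1.15e-08). Tnfrsf11a (RANK, the receptor that drives osteoclast formation) was lower in EPM, at -1.05 (2.07-fold, adjusted p = 2.14e-05), as was Tnfrsf13b (TACI), at -0.96 (1.95-fold, adjusted p = 7.06e-10). Smaller differences were 0.41 for Tnfrsf22 (1.33-fold), 0.27 for Tnfrsf19 (at least 1.16-fold) and -0.39 for Tnfrsf10b, a receptor of TRAIL (1.31-fold). Tnfrsf1a (TNF receptor 1) and Tnfrsf1b (TNF receptor 2) were bright in both, with differences of -0.13 (adjusted p = 0.174) and 0.02 (adjusted p = 0.787). In all, 2 of 9 ligands and 4 of 20 receptors tested were higher in EPM, against 28.5% of all genes tested, and 5 ligands and 4 receptors were lower, against 29.3%. The median difference was -0.37 for ligands, -0.03 for receptors and -0.01 for all genes.
The Tnfrsf13b difference holds for the brightest probe, since its other probe gave -0.10 (adjusted p = 0.304), and of the 3 probes of Tnfrsf21 another gave 0.84 and the remaining probe 0.04 (adjusted p = 0.642). Tnfrsf26, an orphan receptor, was called at -0.41 (adjusted p = 0.0154), but gave -0.25 without untreated EPM replicate 2 (adjusted p = 0.205) and -0.26 without BMDM DMSO 1 h replicate 1 (adjusted p = 0.201). With array means, Tnfrsf13b, Tnfrsf22 and Tnfrsf10b were called only when the B cell arrays were left out, and Tnfrsf19 and Tnfrsf26 in neither fit. Those fits compare the means of the early and the 12 h controls, where the difference of Tnfrsf26 was -0.13.

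The members that were most above the macrophages in B cells were receptors. Tnfrsf13c (the BAFF receptor) had log2 levels of 13.88 and 13.81 in untreated B cells, 6.01 and 6.16 in untreated EPM, and 6.12 and 6.11 in BMDM at DMSO 1 h. The B cell channels stood far above those of both macrophages, of which only 1 EPM channel was called above background. The difference was 7.76 against EPM (standard error 0.08, 217-fold, adjusted p = 8.09e-23) and 7.73 against BMDM (at least 212-fold, adjusted p = 9.78e-23). Tnfrsf18 (GITR) was higher in B cells by 3.61 against EPM (12.3-fold, adjusted p = 2.95e-16) and by 3.41 against BMDM (10.6-fold). Tnfrsf4 (OX40) was higher by 1.78 (3.42-fold) and 1.75 (3.35-fold). Tnfrsf19 was higher than in BMDM by 0.94, at least 1.84-fold (adjusted p = 7.78e-11). Tnfrsf13b, which binds BAFF and APRIL, was higher in B cells than in EPM by 0.93 (1.9-fold, adjusted p = 3.9e-10), whereas against BMDM its difference was -0.04 (adjusted p = 0.645). Its other probe was higher in B cells than in either macrophage, by 1.25 against EPM and 1.14 against BMDM (adjusted p = 1.64e-10).

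Tnfrsf1a showed the reverse. Its levels were 6.00 and 6.05 in untreated B cells, where it was not above background, 12.99 and 12.89 in untreated EPM, and 13.14 and 12.99 in BMDM at DMSO 1 h. B cells were low and the macrophages high, without overlap, at least 115-fold apart for EPM (log2 difference -6.92, adjusted p = 1.74e-22) and at least 126-fold for BMDM (-7.04, adjusted p = 1.53e-22). Tnfrsf11a was also detected in the macrophages and not in untreated B cells, which were lower at least 13.9-fold than EPM and at least 28.8-fold than BMDM (log2 differences -3.95 and -5.00). On its other probe the differences were -1.88 and -2.57. Tnfrsf21 was lower in B cells, at -3.80 against EPM (13.9-fold) and -2.77 against BMDM (6.84-fold), while 1 of its 3 probes gave no more than -0.43 and -0.39. Tnfrsf1b was lower too, at -2.14 (4.42-fold) and -2.12 (4.36-fold). The other probe of Tnfrsf1b gave -0.93 against EPM (adjusted p = 3.6e-07) and -0.97 against BMDM.

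Among ligands no member that B cells expressed above background was called higher there than in a macrophage. Tnfsf4 was called 0.20 higher than in EPM (adjusted p = 0.0065), but it was not above background in either group, so no fold is given, and without untreated B cell replicate 2 it was 0.17 (adjusted p = 0.0592). Tnfsf12-tnfsf13 was lower in B cells, at least 148-fold against EPM (log2 difference -7.40) and at least 13.5-fold against BMDM (-3.93). Tnfsf12, not above background in B cells either, was lower at least 13.8-fold against EPM (-4.04, adjusted p = 2.44e-20) and at least 2.09-fold against BMDM (-1.33, adjusted p = 5.98e-13). Tnfsf13b (BAFF), which macrophages supply to B cells, was lower in B cells at -0.57 against EPM (1.49-fold) and -0.94 against BMDM (1.92-fold), and -0.16 and -0.50 on its other probe. Tnfsf14 was lower at -0.64 (1.56-fold) and -1.84 (3.57-fold). Array means gave no call for Tnfsf13b against EPM or BMDM (adjusted p = 0.723 and 0.13), nor for Tnfsf14 and Tnfsf4 against EPM (adjusted p = 0.0997 and 0.457). Those fits compare means of the early and the 12 h controls, not the early controls alone. In B cells Tnfsf13b read 6.43 untreated and 7.22 at DMSO 12 h, a condition whose label is in conflict. Against EPM, 1 of 9 ligands and 6 of 20 receptors were higher in B cells (all genes 38.5%), and 4 ligands and 10 receptors lower (all genes 38.7%), with median differences of -0.09, -0.17 and -0.01 for ligands, receptors and all genes. Against BMDM, 0 ligands by limma, with 8 at an unadjusted p under 0.05 in any direction, and 5 receptors were higher (all genes 37.4%), and 8 ligands and 10 receptors lower (all genes 39.2%). The median difference against BMDM was -0.73 for ligands, -0.15 for receptors and -0.03 for all genes.
The 3 control comparisons share control groups. Without normalization between arrays, the share of calls that were higher fell from 49.4% to 38.2% for EPM against BMDM, from 49.9% to 39.3% for B cells against EPM and from 48.9% to 33.6% for B cells against BMDM, with medians over all genes of -0.09, -0.14 and -0.22. In bulk samples fewer cells of a type and less RNA per cell cannot be told apart. The neutrophil markers, 5 on the array, were all detected in BMDM at DMSO 1 h (sums 13690 and 14400, S100a9 the brightest), while untreated EPM had 3 (959.6 and 1053, Ngp and Camp not above background) and untreated B cells 2 (425.5 and 421.7). Of 4 dendritic cell markers, untreated EPM had 3 (sums 9604 and 9121, mostly Itgax), BMDM 2 (571.8 and 555.9, mostly Itgax) and untreated B cells 3 (22280 and 22770, mostly Ccr7), with Siglech not above background in any of them. Of 8 T cell markers, 6 were detected in untreated EPM (sums 1022 and 994.7), 3 in BMDM (1067 and 1029) and 3 in B cells (1879 and 1541, mostly Lck). The part of other cells in these differences was not tested.

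**Figure D1:**
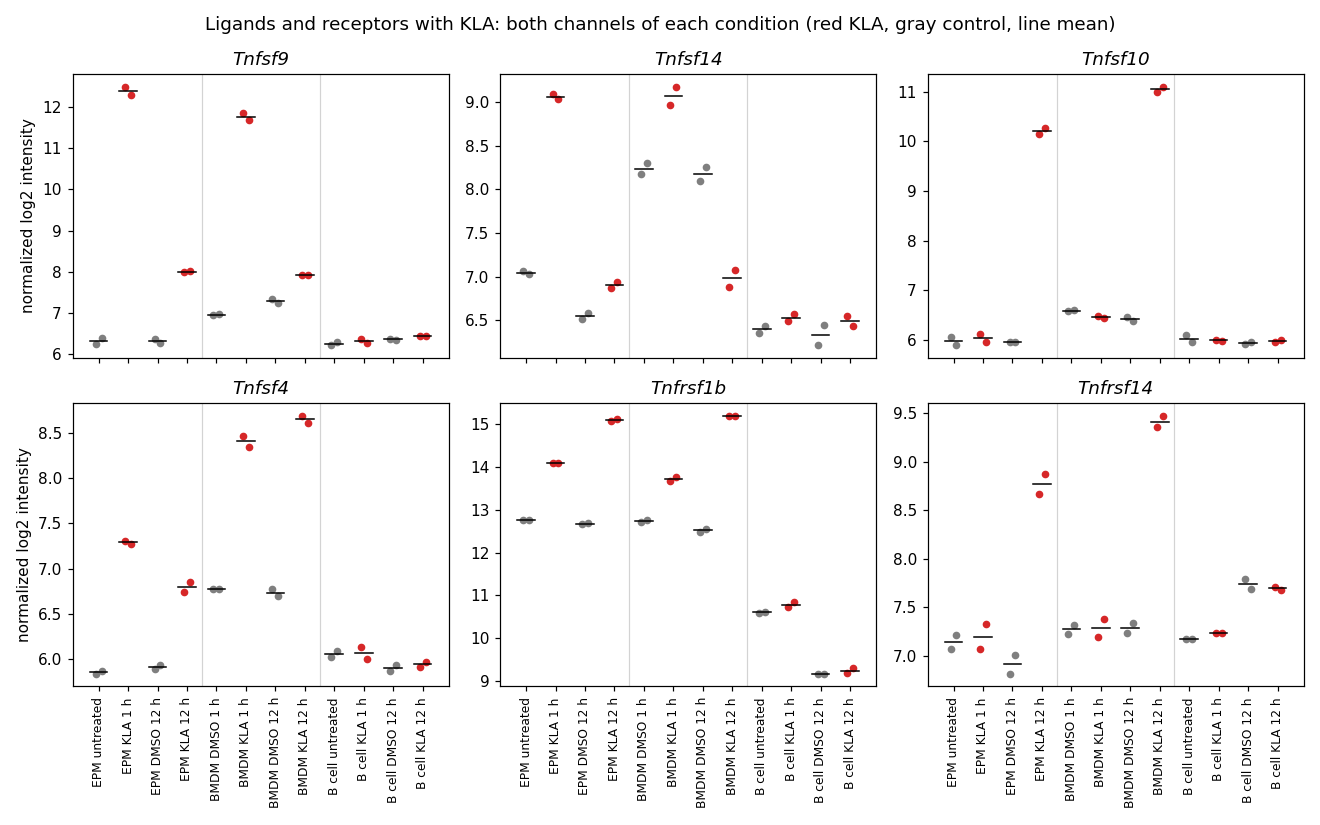
Normalized log2 intensity (vertical axis) of 6 members in 12 conditions (horizontal axis), with a point for each of the 2 channels, a line at their mean, KLA in red and controls in gray. Tnfsf9 reached 12.48 and 12.28 in EPM at KLA 1 h, and Tnfsf10 reached 11 and 11.09 in BMDM at KLA 12 h, while the B cell channels of Tnfsf9 and Tnfsf10 stayed between 5.91 and 6.45.

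After 1 h of KLA, the members that rose most in EPM were ligands. Tnfsf9, which costimulates T cells through 4-1BB, had log2 levels of 6.24 and 6.39 in untreated EPM, 12.48 and 12.28 at KLA 1 h, 6.36 and 6.27 at DMSO 12 h, and 8.00 and 8.01 at KLA 12 h. The KLA 1 h channels were the highest, those at 12 h of KLA lay between, and no KLA channel overlapped a control. The change at 1 h was 6.07 (standard error 0.07, 67.1-fold, adjusted p = 1.79e-20). Tnfsf14 had 7.06 and 7.03 untreated, 9.09 and 9.03 at KLA 1 h, 6.51 and 6.58 at DMSO 12 h, and 6.87 and 6.94 at KLA 12 h. Its KLA 1 h channels were above all others of EPM, and its KLA 12 h channels were above the DMSO 12 h channels and below the untreated ones. It rose by 2.02 at 1 h (standard error 0.09, 4.05-fold, adjusted p = 3.15e-12). Tnfsf4, which costimulates T cells through OX40, was not above background in untreated EPM (5.84 and 5.87) and read 7.31 and 7.27 at KLA 1 h, at least 2.48-fold higher (change 1.44, adjusted p = 2.1e-12).

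Among receptors, Tnfrsf1b rose. It had 12.75 and 12.76 in untreated EPM, 14.10 and 14.09 at KLA 1 h, 12.66 and 12.68 at DMSO 12 h, and 15.06 and 15.12 at KLA 12 h. Its 4 KLA channels were above its 4 control channels, and those at 12 h were the highest. The change at 1 h was 1.34 (standard error 0.06, 2.53-fold, adjusted p = 1.18e-12), and 0.43 on its other probe (adjusted p = 0.00668). Tnfrsf19l (RELT) fell by 0.38 (adjusted p = 0.006) and Tnfrsf22, a decoy receptor of TRAIL, fell by 0.23 (adjusted p = 0.0116). With array means as samples, which leaves 3 residual degrees of freedom over the 3 control pairs, Tnfsf9, Tnfsf14 and Tnfsf4 were called and Tnfrsf1b was not (1.38, standard error 0.56, adjusted p = 0.533). The control arrays differed for Tnfrsf1b by -0.08 in EPM, by -0.22 in BMDM and by -1.43 in B cells, between DMSO 12 h and the early control. Without the B cell arrays, which leaves 2 degrees of freedom, all 4 were called, Tnfrsf1b with a standard error of 0.13 (adjusted p = 0.0264). Tnfrsf19l and Tnfrsf22 were called in neither fit.

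In EPM at 1 h, 3 of 9 ligands and 1 of 20 receptors rose, against 9.39% of all genes, and 0 ligands and 2 receptors fell by limma, against 19.6% of all genes. At an unadjusted p under 0.05, 6 ligands and 5 receptors differed in any direction. Changes of at least 2-fold upward were found for 3 ligands, 1 receptor and 1.68% of all genes. Median changes were 0.13 for ligands, -0.02 for receptors and -0.05 for all genes.
Of all calls 32.4% were higher, 44.8% when the comparison was centred on its median and 46.3% in the authors' table, and centring gave 7 members higher and 2 lower. Tnfrsf19l and Tnfrsf22 lost their calls without untreated EPM replicate 2 (-0.31 and -0.20, adjusted p = 0.0745 and 0.0809) and without EPM KLA 1 h replicate 1 (-0.33 and -0.19, adjusted p = 0.0698 and 0.119).
The neutrophil markers summed to 959.6 and 1053 in untreated EPM and 1884 and 1800 at KLA 1 h, with 3 of 5 detected in both and Ngp and Camp not above background. S100a9 rose from 7.93 and 7.66 to 9.72 and 9.74, while Mpo of that list went from 7.41 and 7.54 to 7.3 and 7.14. In all, 2 of the 5 were called higher and 1 lower. The part of this list in the changes of the members was not tested.

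With the dye as replicate block, which pairs channels of the same dye, 5 members rose and 5 fell in EPM at 1 h, beside 12.8% and 27.8% of all genes in the same fit. The calls added to those above were Tnfsf12-tnfsf13 (-0.215, adjusted p = 0.0108), Tnfrsf11b (0.23, adjusted p = 0.0076), Tnfrsf13b (-0.185, adjusted p = 0.0281) and Tnfrsf1a (-0.15, adjusted p = 0.0497), named after their values were seen.

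In BMDM the same 3 ligands rose at 1 h. Tnfsf9 had log2 levels of 6.95 and 6.97 at DMSO 1 h, 11.85 and 11.68 at KLA 1 h, 7.34 and 7.24 at DMSO 12 h, and 7.93 and 7.92 at KLA 12 h. The KLA 1 h channels stood above all others of BMDM, and the KLA 12 h channels were above the controls without overlap. The change at 1 h was 4.80 (standard error 0.07, 27.9-fold, adjusted p = 6.36e-19). Tnfsf14 had 8.17 and 8.30 at DMSO 1 h, 8.97 and 9.17 at KLA 1 h, 8.10 and 8.25 at DMSO 12 h, and 6.88 and 7.08 at KLA 12 h. It was highest at 1 h of KLA and lowest at 12 h of KLA, with controls between and no overlap. It rose by 0.83 at 1 h (standard error 0.09, 1.78-fold, adjusted p = 8.52e-07), a call that array means did not make with or without the B cell arrays (0.87, adjusted p = 0.286 and 0.209). Tnfsf4 read 6.78 and 6.78 at DMSO 1 h and 8.47 and 8.35 at KLA 1 h, and it rose by 1.63 (3.09-fold, adjusted p = 3.19e-13). Tnfsf12 and Tnfsf15 (TL1A), named after their values were seen, rose by 0.56 (1.48-fold) and 0.33, and array means called neither of them (adjusted p = 0.464 and 0.479).

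Tnfrsf1b was again the member receptor that rose most in BMDM at 1 h. It read 12.71 and 12.76 at DMSO 1 h, 13.67 and 13.77 at KLA 1 h, 12.49 and 12.55 at DMSO 12 h, and 15.18 and 15.19 at KLA 12 h. As in EPM, all KLA channels lay above all control channels. The change at 1 h was 0.99 (standard error 0.06, 1.98-fold, adjusted p = 1e-10), 0.48 on its other probe (adjusted p = 0.00346) and not called with array means (1.09, adjusted p = 0.713), though called without the B cell arrays (adjusted p = 0.0485). Tnfrsf13c was detected at KLA 1 h (6.53 and 6.58) and not at DMSO 1 h (6.12 and 6.11), at least 1.36-fold higher (change 0.44, adjusted p = 0.000404). Tnfrsf13b fell by 0.49 (1.41-fold, adjusted p = 2.3e-05), and its other probe gave -0.05 (adjusted p = 0.716). With array means neither Tnfrsf13c (adjusted p = 0.775, and 0.169 without the B cell arrays) nor Tnfrsf13b (adjusted p = 1 and 0.159) was called.

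In BMDM at 1 h, 5 of 9 ligands and 4 of 20 receptors rose, against 11% of all genes, and 0 ligands (limma, with 5 at an unadjusted p under 0.05 in any direction) and 3 receptors fell, against 17.5%. Changes of at least 2-fold upward were found for 2 ligands, 0 receptors by limma (9 at an unadjusted p under 0.05, of any size) and 1.6% of all genes. Median changes were 0.33 for ligands, -0.03 for receptors and -0.03 for all genes.
Of all calls 38.5% were higher, and 50.9% in the authors' table. The summed intensity of the neutrophil markers was 13690 and 14400 at DMSO 1 h and 20240 and 23960 at KLA 1 h, with 5 of 5 detected in both and S100a9 the brightest. Its part in the changes of the members was not tested.

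With the replicate block, 10 members rose and 5 fell in BMDM at 1 h, beside 14.5% and 25.1% of all genes in the same fit. The calls added were Tnfrsf11b (0.20, adjusted p = 0.0164), Tnfrsf12a (-0.17, adjusted p = 0.0222) and Tnfrsf21 (-0.22, adjusted p = 0.00999), named after their values were seen. Array means called none of them, with or without the B cell arrays. For Tnfrsf12a the BMDM controls differed by -1.02 between DMSO 12 h and DMSO 1 h, and the change from their mean was 0.34.

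By 12 h the leading ligand among the members was Tnfsf10, which binds death receptors. In EPM it had log2 levels of 6.06 and 5.90 untreated, 6.12 and 5.95 at KLA 1 h, 5.96 and 5.95 at DMSO 12 h, and 10.14 and 10.26 at KLA 12 h. In BMDM it had 6.58 and 6.60 at DMSO 1 h, 6.49 and 6.43 at KLA 1 h, 6.45 and 6.37 at DMSO 12 h, and 11 and 11.09 at KLA 12 h. The 12 h KLA channels of both macrophages stood apart from all the others, and in EPM the other groups were not above background. The change at 12 h was 4.25 in EPM (standard error 0.07, at least 17.7-fold, adjusted p = 3.79e-19) and 4.64 in BMDM (standard error 0.07, 24.8-fold, adjusted p = 1.4e-19).

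In EPM at 12 h, Tnfsf9 was higher than in its DMSO control by 1.69 (standard error 0.07, 3.24-fold, adjusted p = 4.76e-13). Tnfsf12-tnfsf13 read 13.06 and 13.25 at DMSO 12 h and 11.27 and 11.48 at KLA 12 h. It fell by 1.78 (standard error 0.10, 3.43-fold, adjusted p = 2.17e-11), with groups that did not overlap. Other ligands called, named after their values were seen, were Tnfsf12, which fell by 0.90, Tnfsf4, at least 1.67-fold higher, Tnfsf15, which rose by 0.63, Tnfsf13b, by 0.45, and Tnfsf14, by 0.36. The other probe of Tnfsf13b gave -0.10 (adjusted p = 0.246), and with array means Tnfsf13b (0.39, adjusted p = 0.561 and 0.0585) and Tnfsf14 (0.11, adjusted p = 0.849 and 0.789) were not called with or without the B cell arrays.

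Member receptors of EPM at 12 h were led by Tnfrsf1b, with a change of 2.42 (standard error 0.06, 5.34-fold, adjusted p = 3.48e-17), 1.17 on its other probe (adjusted p = 4.64e-08). Array means gave 2.38 for Tnfrsf1b, without a call over all arrays (adjusted p = 0.0604) and with one when the B cell arrays were left out (adjusted p = 0.00169). Tnfrsf14 (HVEM, a receptor of LIGHT) had log2 levels of 7.07 and 7.22 untreated, 7.07 and 7.33 at KLA 1 h, 6.82 and 7.01 at DMSO 12 h, and 8.67 and 8.87 at KLA 12 h. The KLA 12 h channels lay above all others, while untreated and KLA 1 h channels overlapped. Tnfrsf14 rose by 1.86 at 12 h (standard error 0.09, 3.62-fold, adjusted p = 4.33e-12), and by 1.24 on its other probe. Tnfrsf11b (osteoprotegerin, the decoy receptor of RANKL), named after its values were seen, rose by 0.99 (1.99-fold, adjusted p = 3.79e-08). Tnfrsf13b fell by 1.03 (standard error 0.07, 2.04-fold, adjusted p = 3.08e-10), while its other probe gave -0.08 (adjusted p = 0.458) and array means gave -1.10 without a call (standard error 0.71, adjusted p = 0.443). The control arrays differed for Tnfrsf13b by 1.84 in B cells and by -0.15 in EPM, and without the B cell arrays it was called (standard error 0.11, adjusted p = 0.0055). Tnfrsf21, also named after its values were seen, fell by 0.88 (adjusted p = 1.02e-07), by 0.81 on another probe, and gave -0.13 on the remaining probe (adjusted p = 0.135).

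In EPM at 12 h, 6 of 9 ligands and 8 of 20 receptors rose, against 19.6% of all genes, and 2 ligands and 2 receptors fell, against 34.4%. The 8 receptors include Tnfrsf9, which passed the filter in 2 conditions and whose brightest probe was highest at KLA 12 h. Changes of at least 2-fold upward were found for 2 ligands, 2 receptors and 4.81% of all genes. Median changes were 0.45 for ligands, 0.07 for receptors and -0.06 for all genes.
Of all calls 36.3% were higher, and 46.4% without normalization between arrays. The median over all genes was -0.11 with the processed signal of the scanner software. Itgax, the brightest dendritic cell marker in EPM, was at 13.65 at DMSO 12 h and 12.02 at KLA 12 h, and the list summed to 13850 and 12440 against 4702 and 4831, with 3 of 4 detected in both groups and Siglech not above background. Ccr7 of the same list went the other way, from 6.65 and 6.89 to 8.61 and 8.99. Their part in the changes was not tested.

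In BMDM at 12 h, Tnfsf4 read 6.77 and 6.70 in DMSO and 8.69 and 8.61 in KLA, and rose by 1.91 (standard error 0.06, 3.77-fold, adjusted p = 4.88e-15). Tnfsf14, which had risen at 1 h, fell by 1.20 at 12 h (standard error 0.09, 2.29-fold, adjusted p = 9.04e-10). Other ligands called, named after their values were seen, were Tnfsf15, which rose by 0.94 (1.91-fold), and Tnfsf9, which rose by 0.64 (1.55-fold). Tnfsf8 (CD30 ligand) was at least 1.83-fold higher, but it was above background in BMDM at KLA 12 h only and passed the filter through that group alone, so a member that was tested only because it was high there had to differ. Tnfsf12-tnfsf13 fell by 0.89 (1.85-fold). Tnfsf12 fell by 0.67 and was not called with array means (adjusted p = 0.0651, and 0.0542 without the B cell arrays). Tnfsf13b was not called on its brightest probe (-0.02, adjusted p = 0.787), while its other probe rose by 0.56 (adjusted p = 4.82e-07).

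Tnfrsf1b rose in BMDM at 12 h by 2.67 (standard error 0.06, 6.36-fold, adjusted p = 1.11e-17), and by 1.90 on its other probe. Tnfrsf14 had log2 levels of 7.23 and 7.32 at DMSO 1 h, 7.20 and 7.38 at KLA 1 h, 7.24 and 7.34 at DMSO 12 h, and 9.35 and 9.47 at KLA 12 h. The KLA 12 h channels stood alone and the other 3 groups overlapped. The change of Tnfrsf14 at 12 h was 2.12 (standard error 0.09, 4.35-fold, adjusted p = 4.28e-13), and 1.73 on its other probe. Tnfrsf21 fell by 1.32 (standard error 0.09, 2.5-fold, adjusted p = 2.19e-10), by 1.06 on another probe and by 0.19 on the remaining probe (adjusted p = 0.0193). Tnfrsf11a, named after its values were seen, rose by 0.97 (1.95-fold, adjusted p = 4.11e-05). Tnfrsf9 (4-1BB), the receptor of the Tnfsf9 protein and also named after its values were seen, was not above background in any control. On its brightest probe it was at least 1.2-fold higher in BMDM at 12 h (adjusted p = 0.0104), a call that array means did not make (adjusted p = 0.114), and at least 1.29-fold higher in EPM at 12 h. Tnfrsf9 passed the filter in 2 conditions, and its brightest probe was highest at KLA 12 h in both macrophages. A member that was tested only because it was high there had to differ. The other probe of Tnfrsf9 differed from these undetected controls by -0.32 in BMDM at 12 h (adjusted p = 0.000115), by -0.10 in EPM at 12 h (adjusted p = 0.175) and by 0.59 in EPM at 1 h (adjusted p = 3.16e-07), where the brightest probe gave 0.08 (adjusted p = 0.586). No fold is given for that probe.

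In BMDM at 12 h, 5 of 9 ligands, Tnfsf8 among them, and 7 of 20 receptors, Tnfrsf9 among them, rose, against 28.6% of all genes, and 3 ligands and 4 receptors fell, against 36.4%. Changes of at least 2-fold upward were found for 2 ligands, 2 receptors and 6.27% of all genes. Median changes were 0.64 for ligands, 0.07 for receptors and -0.03 for all genes. The ligand median counts Tnfsf8, which had to differ there, and would be lower without it.
Of all calls 44% were higher, and 29.9% without normalization between arrays, where the median over all genes was -0.14. The neutrophil markers summed to 9419 and 11120 at DMSO 12 h and 19260 and 22190 at KLA 12 h, with 5 of 5 detected and S100a9 the brightest, while Mpo of that list fell from 8.69 and 8.95 to 8.09 and 8.16. The B cell markers were at 3611 and 3797 against 1593 and 1613, mostly Cd79b. Their part in the changes was not tested.

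**Figure D2:**
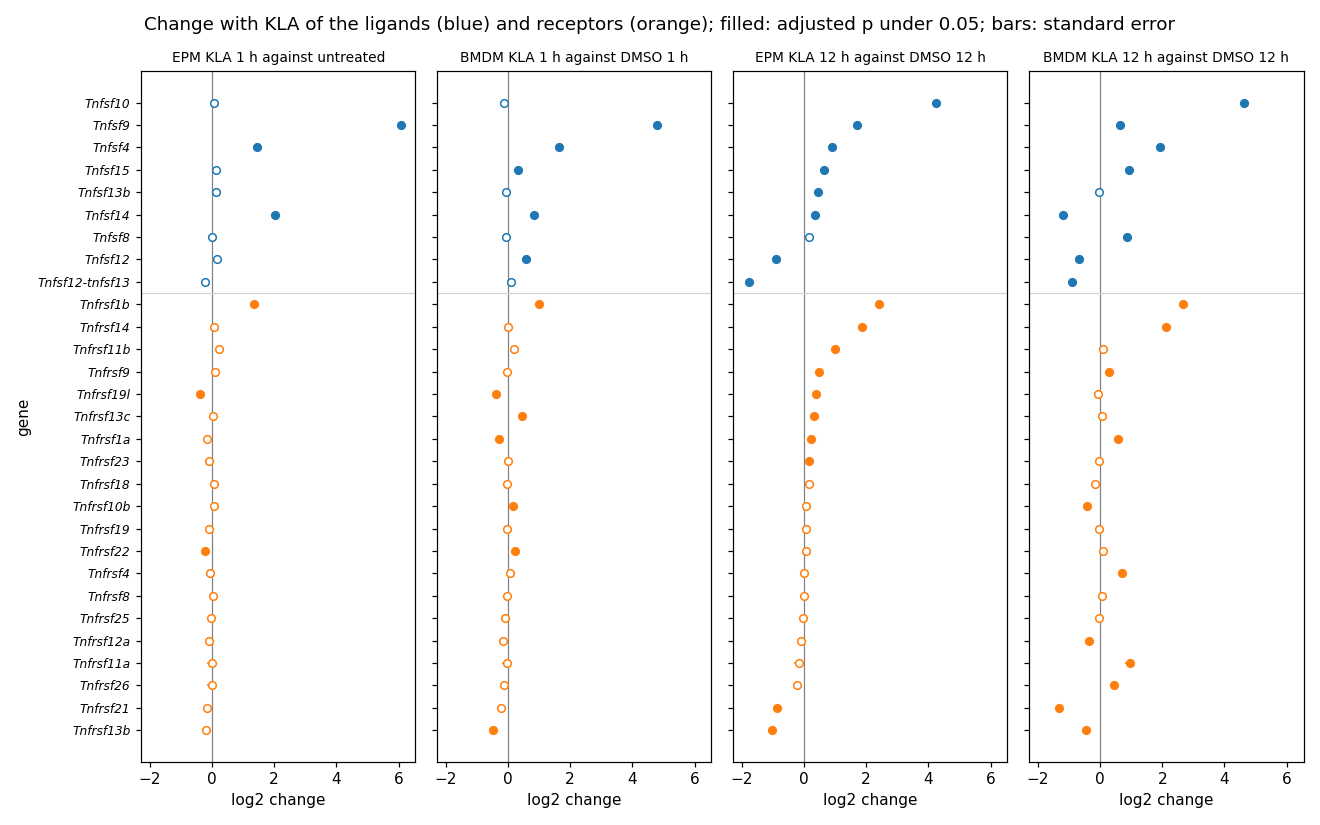
Log2 change after KLA with its standard error (horizontal axis) of 9 ligands (blue) and 20 receptors (orange) tested (vertical axis) in 4 macrophage comparisons, with filled points where the adjusted p was under 0.05. Tnfsf9 stood out at 1 h with 6.07 in EPM and 4.80 in BMDM, and Tnfsf10 at 12 h with 4.25 and 4.64.

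The other members moved less or were dim. Tnfrsf1a, the death domain receptor of TNF, gave small changes, -0.15 in EPM and -0.30 in BMDM at 1 h and 0.23 and 0.57 at 12 h, of which that of EPM at 1 h was not called. Array means, with or without the B cell arrays, called only that of BMDM at 12 h. Tnfrsf4, also named after its values were seen, rose by 0.70 in BMDM at 12 h (adjusted p = 8.75e-07) and read between 8.18 and 8.32 in all EPM channels. Tnfrsf12a, the receptor of TWEAK, fell by 0.35 in BMDM at 12 h (adjusted p = 0.0029). Array means did not call it with or without the B cell arrays, and the change from the mean of the 2 BMDM controls was -0.86. Between DMSO 12 h and DMSO 1 h, the BMDM control arrays differed by -1.02 for Tnfrsf12a. Tnfrsf17 (BCMA) was above background in no channel of the 24, with levels between 5.89 and 6.16. The brightest probe of Tnfsf18 lay between 5.83 and 6.31 and that of Tnfsf11 between 5.8 and 6.22. The other probe of Tnfsf11 rose by 0.22 in EPM at 12 h (adjusted p = 0.00395) and by 0.16 in BMDM at 12 h (adjusted p = 0.0307), outside the counts, with groups not above background. Tnfrsf8 (CD30), which passed the filter, lay between 6.01 and 6.31 in all channels and was called in no KLA comparison by limma.

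The change after KLA was compared between EPM and BMDM by the difference of the changes. At 1 h, the change of Tnfsf9 was larger in EPM by 1.26 (standard error 0.10, adjusted p = 1.09e-07) and that of Tnfsf14 by 1.18 (adjusted p = 2.68e-06). For Tnfsf14 the levels after KLA overlapped, at 9.09 and 9.03 in EPM and 8.97 and 9.17 in BMDM. Its controls differed, at 7.06 and 7.03 in untreated EPM and 8.17 and 8.30 in BMDM at DMSO 1 h. The change of Tnfrsf1b was larger by 0.35 (adjusted p = 0.0059) on its brightest probe and differed by -0.0439 (adjusted p = 0.923) on its other probe. Differences were negative for Tnfrsf22, at -0.47 (adjusted p = 0.0019), Tnfsf12, at -0.415 (adjusted p = 0.0049), and Tnfrsf13c, at -0.39 (adjusted p = 0.0362). Tnfrsf13c was above background in both channels only at KLA 1 h in BMDM among these 4 groups. In all, 2 of 9 ligands and 1 of 20 receptors had a more positive change in EPM, against 4.1% of all genes, and 1 ligand and 2 receptors a more negative change, against 5.46%.
With array means no member was called by limma, with 2 at an unadjusted p under 0.05, and 3 without the B cell arrays. The call of Tnfrsf13c was lost without any 1 of 7 of the 8 replicates, with differences of -0.32 (untreated EPM replicate 2, adjusted p = 0.153), -0.41 and -0.38 (EPM KLA 1 h replicates 1 and 2, 0.0835 and 0.0955), -0.40 and -0.39 (BMDM DMSO 1 h replicates 1 and 2, 0.0883 and 0.0866), and -0.42 and -0.37 (BMDM KLA 1 h replicates 1 and 2, 0.0625 and 0.11).

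At 12 h, Tnfsf14 moved in opposite directions, with changes of 0.36 in EPM and -1.20 in BMDM and a difference of 1.56 (standard error 0.13, adjusted p = 1.08e-08). With array means its EPM change was 0.11 and not called, and the EPM control arrays differed by -0.5. The change of Tnfsf9 was larger in EPM by 1.06 (adjusted p = 1.39e-07) and that of Tnfrsf11b by 0.90 (adjusted p = 1.91e-05). Tnfrsf11a had a more negative change in EPM, at -1.14 (adjusted p = 0.000536), as had Tnfsf12-tnfsf13, at -0.89 (adjusted p = 4.21e-05). For Tnfsf4 the difference was -1.03 (adjusted p = 2.02e-08), but it turned to 1.55 with the processed signal of the scanner software, and Tnfsf4 was not above background in EPM at DMSO 12 h. For 3 of 9 ligands and 4 of 20 receptors the change was more positive in EPM, against 23.2% of all genes, and for 6 ligands and 6 receptors more negative, against 24.7%. The 6 ligands include Tnfsf8, which passed the filter through BMDM at KLA 12 h alone. The balance of these counts, 7 members more positive and 12 more negative, turned to 10 and 6 without normalization between arrays, to 10 and 6 with the processed signal, and to 10 and 7 in the authors' table. Median differences were -0.30 for ligands, Tnfsf8 included, 0.05 for receptors and -0.03 for all genes.
With array means no member was called by limma, with 9 at an unadjusted p under 0.05, and without the B cell arrays Tnfsf4 alone was (-0.98, adjusted p = 0.0477). Of all calls 48.5% were more positive in EPM, and 76.7% without normalization between arrays, where the median over all genes was 0.17.

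In the other macrophage and control comparisons, the replicate block added calls for members named after their values were seen, while the shares of all genes called rose too, to 22.4% higher and 38.8% lower in EPM at 12 h, for example. In EPM at 12 h they were Tnfrsf26 (-0.21, adjusted p = 0.023) and Tnfsf8 (0.17, adjusted p = 0.0257), which was not above background there. At the early controls they were Tnfrsf19l, higher in B cells than in EPM by 0.16 (adjusted p = 0.0108), and Tnfrsf8, lower in B cells than in BMDM at -0.14 (adjusted p = 0.0299) and not above background in untreated B cells. For the differences of changes they were Tnfrsf13b (0.31, adjusted p = 0.0234) and Tnfsf12-tnfsf13 (-0.30, adjusted p = 0.024) at 1 h, and Tnfrsf12a (0.25, adjusted p = 0.0146) and Tnfrsf14 (-0.27, adjusted p = 0.0273) at 12 h.

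B cells, with the scanner labels, showed few changes among the members on their brightest probes. At 1 h of KLA, 0 of 9 ligands and 0 of 20 receptors rose by limma, against 2.74% of all genes, and 0 of each fell, against 2.44%. At an unadjusted p under 0.05 there were 0 ligands and 6 receptors. Tnfrsf4 had the largest change, 0.27 (adjusted p = 0.0774). At 12 h, 0 ligands (limma, with 2 at an unadjusted p under 0.05 in any direction) and 2 receptors rose, against 2.82% of all genes, and 1 ligand and 0 receptors (limma, with 4 at an unadjusted p under 0.05) fell, against 2.49%. Tnfsf13b, the survival factor BAFF, had log2 levels of 6.46 and 6.41 untreated, 6.35 and 6.37 at KLA 1 h, 7.19 and 7.24 at DMSO 12 h, and 6.19 and 6.15 at KLA 12 h. The DMSO 12 h channels were the only ones above 7, and at KLA 12 h it was not above background. It fell by 1.05 (standard error 0.06, at least 2.06-fold, adjusted p = 1.5e-09), while its other probe gave 0.06 (adjusted p = 0.709). Other probes also added calls at 12 h, for Tnfrsf11a (0.48, adjusted p = 0.00535) and Tnfrsf13b (0.33, adjusted p = 0.018), whose brightest probes gave 0.19 and 0.18 (adjusted p = 0.625 and 0.147 in the fit of probes). Of the B cell conditions, Tnfrsf11a was detected in both channels at KLA 12 h alone.

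Tnfrsf23, a decoy receptor of TRAIL, was detected in B cells in both channels at KLA 12 h alone, with 6.97 and 7.15 against 6.20 and 6.22 at DMSO 12 h. It rose at least 1.8-fold (change 0.85, adjusted p = 4.81e-08). Tnfrsf19 (TROY) rose by 0.22 (adjusted p = 0.0454), a call lost without DMSO 12 h replicate 1 (0.16, adjusted p = 0.333) and without KLA 12 h replicate 2 (0.16, adjusted p = 0.282). With array means no B cell member was called at 12 h by limma, with 1 at an unadjusted p under 0.05, and the adjusted p was 0.632 for Tnfrsf23 and 1 for Tnfsf13b and Tnfrsf19. In the plot of levels by condition, the 8 B cell channels lay between 6.23 and 6.45 for Tnfsf9 and between 5.91 and 6.1 for Tnfsf10.

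With the labels of B cell KLA 1 h and DMSO 12 h exchanged, 1 of 9 ligands and 5 of 20 receptors were higher at 1 h of KLA, and 2 ligands and 3 receptors lower. Of all genes 24.9% were then higher and 22.5% lower. At 12 h, 0 ligands by limma and 6 receptors were higher, and 1 ligand and 4 receptors lower, with 12 of the 29 at an unadjusted p under 0.05 in any direction and 24.7% and 24.4% of all genes higher and lower. Tnfrsf13b and Tnfrsf18 then rose at 1 h by 1.84 and 1.79, and at 12 h by 2.18 and 1.67. Tnfrsf1b then fell by 1.43 at 1 h and fell by 1.54 at 12 h, while its other probe gave -0.20 (adjusted p = 0.159) and -0.32 (adjusted p = 0.0255). The 12 h change of Tnfsf13b became -0.19 (adjusted p = 0.0175), that of Tnfrsf23 0.75 and that of Tnfrsf19 -0.08 (adjusted p = 0.292). On the other probes, the 12 h changes of Tnfrsf11a and Tnfrsf13b were 0.45 (adjusted p = 0.00117) and 2.03. The 1 h change of Tnfrsf4 turned to -0.10 (adjusted p = 0.386).
Values of other cell types' markers stand beside these results. The macrophage markers summed to 1110 and 1094 in the channels labelled B cell KLA 1 h and 2940 and 2810 in those labelled DMSO 12 h, where Emr1 (10.88) was the brightest and Itgam, Fcgr1 and Msr1 were not above background. The T cell markers summed to 1680 and 1603 (3 of 8 detected) against 3584 and 3177 (5 of 8), mostly Lck, and Ncr1, an NK cell marker, was at 8.31 in the former and not above background in the latter. The part of other cells in these values was not tested.
The 2 conditions whose labels are not in conflict give a reference. Emr1 read 7.48 and 7.56 in untreated B cells, 7.47 and 7.41 in the channels labelled KLA 1 h, 10.92 and 10.84 in those labelled DMSO 12 h, and 10.71 and 10.51 at KLA 12 h. Lck read 10.32 and 9.91, 10.07 and 9.98, 11.53 and 11.33, and 11.48 and 11.27 in the same order. Ccr7 read 14.43 and 14.46, 14.44 and 14.53, 13.40 and 13.56, and 13.46 and 13.58. On these 3 genes, chosen after their values were seen, the channels labelled KLA 1 h lay near untreated and those labelled DMSO 12 h near KLA 12 h, as the times of the scanner labels group them. Ncr1 did not follow this, at 8.31 in the channels labelled KLA 1 h and not above background in the other 3 conditions.

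As paired values with dye as a replicate block, B cells had more calls, among members and among all genes (7.22% up with 6.68% down after 1 h of KLA, 5.69% up with 5.51% down after 12 h). At 1 h these were Tnfrsf4 (0.27, adjusted p = 0.0226), Tnfrsf1b (0.17, adjusted p = 0.0222) and Tnfrsf25 (0.19, adjusted p = 0.0372), named after their values were seen. Array means called none of them. Without the block, the other probes gave 0.03 for Tnfrsf1b (adjusted p = 0.928) and -0.03 for Tnfrsf25 (adjusted p = 0.863). At 12 h, Tnfrsf12a (-0.24, adjusted p = 0.0092) and Tnfsf15 (0.18, adjusted p = 0.0384) were called beside Tnfsf13b, Tnfrsf23 and Tnfrsf19. With exchanged labels and the same block, the 1 h changes were -0.0971 for Tnfrsf4 (adjusted p = 0.313), -1.43 for Tnfrsf1b and 0.76 for Tnfrsf25, and the 12 h changes were -1.38 for Tnfrsf12a and 0.08 for Tnfsf15 (adjusted p = 0.227). The directions of Tnfrsf4 and Tnfrsf1b thus turned with the labels. On its other probe, fitted without the block, Tnfrsf25 gave -0.0045 at 1 h with exchanged labels (adjusted p = 0.968).

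Superfamily genes whose names fall outside the rule, and their signalling partners, were read as 3 lists. Of 7 other ligands, 6 were tested (not Cd40lg), of which 3 rose and 1 fell in EPM at 1 h, and 4 rose at 12 h with a median of 0.57. In BMDM 3 rose at 1 h, and 4 rose and 1 fell at 12 h with a median of 0.29. Over all genes, 9.39% rose and 19.6% fell in EPM at 1 h, and 19.6% and 34.4% at 12 h, while 11% and 17.5% did so in BMDM at 1 h and 28.6% and 36.4% at 12 h. Tnf itself rose by 6.73 in EPM (adjusted p = 1.2e-20) and by 3.95 in BMDM (adjusted p = 1.85e-17) at 1 h, and by 5.75 and 1.97 at 12 h. Its mean log2 level at KLA 1 h was 16.34 in EPM and 16.24 in BMDM, from early controls of 9.61 and 12.29. At KLA 12 h it was 14.18 and 13.95, from DMSO controls of 8.42 and 11.98. Lta (lymphotoxin alpha) was not above background in the controls and was at least 4.84-fold higher in EPM and at least 5.16-fold higher in BMDM at 12 h of KLA, and at least 1.7-fold higher in BMDM at 1 h. Ltb (lymphotoxin beta) rose by 0.35 and 0.87 in EPM at 1 h and 12 h, and by 0.41 in BMDM at 12 h. Cd70, the ligand of CD27, fell at least 1.55-fold in EPM at 1 h (adjusted p = 6.13e-07), where it was not above background after KLA. In BMDM Cd70 went both ways, at least 1.28-fold higher at 1 h (adjusted p = 0.000358) and, named after its values were seen, at least 1.31-fold lower at 12 h (adjusted p = 3.11e-05), where it was not above background after KLA. Cd70 was dim and its controls differed about as much. They read 6.12 at DMSO 1 h and 6.50 at DMSO 12 h in BMDM, and 6.73 untreated and 6.11 at DMSO 12 h in EPM. The controls at 6.12 and 6.11 were not above background.

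Of 7 other receptors, 3 rose in EPM at 1 h, and 2 rose and 1 fell at 12 h. In BMDM 3 rose at 1 h, and 3 rose and 1 fell at 12 h. At 12 h these counts stood beside 19.6% of all genes rising and 34.4% falling in EPM and 28.6% and 36.4% in BMDM, and beside 9.39% and 11% rising at 1 h. Cd40, through which T cells activate macrophages and B cells, rose by 2.58 at 1 h and 6.15 at 12 h in EPM (adjusted p = 8.07e-16 and 1.35e-21). In BMDM Cd40 rose by 2.89 and 5.13. Fas, a death receptor, rose by 0.60 and 2.30 in EPM and by 1.21 and 1.996 in BMDM. Ltbr (the lymphotoxin beta receptor) rose by 0.30 in EPM and 0.42 in BMDM at 1 h and was not called at 12 h (-0.01 and -0.08). At 12 h Ngfr, the receptor of nerve growth factor, fell by 0.64 in EPM (adjusted p = 7.99e-07), and Eda2r, a receptor of ectodysplasin, fell at least 1.39-fold in BMDM (adjusted p = 1.58e-06).

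Of 21 adaptors and transducers, all tested, 8 rose and 2 fell in EPM at 1 h, and 17 rose and 2 fell at 12 h. In EPM the shares of all genes that rose and fell were 9.39% and 19.6% at 1 h and 19.6% and 34.4% at 12 h. In BMDM 9 rose and 3 fell at 1 h (all genes 11% and 17.5%), and 14 rose and 4 fell at 12 h (28.6% and 36.4%). Their median change at 12 h was 0.70 in EPM and 0.73 in BMDM, against -0.06 and -0.03 for all genes. Traf1, an adaptor of TNF receptor 2, rose by 2.94 and 5.12 in EPM and by 3.35 and 4.12 in BMDM at 1 h and 12 h. Tnfaip3 (A20), a brake on NF-kappaB, rose by 4.28 and 2.02 in EPM and by 4.40 and 2.26 in BMDM. Cflar (c-FLIP), which blocks death receptor signalling, rose by 2.88 and 2.60 in EPM and by 1.66 and 2.47 in BMDM. Nfkb2, the NF-kappaB subunit p100, rose by 2.51 in EPM at 12 h (adjusted p = 4.32e-14). In B cells with the scanner labels, 3 adaptors rose and 1 fell at 12 h (all genes 2.82% and 2.49%), and Tnfaip3 gave 0.57 (adjusted p = 1.27e-05). At 1 h 1 rose and 1 fell (all genes 2.74% and 2.44%). With exchanged labels 4 rose and 12 fell at 12 h (all genes 24.7% and 24.4%), with -0.43 for Tnfaip3 (adjusted p = 2.88e-05), and 4 rose and 11 fell at 1 h (all genes 24.9% and 22.5%), so the direction of Tnfaip3 rests on the labels.

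Promoter sequences are shown for 4 members on which the macrophage results turn. They are the 250 bases before the start of each gene from RefSeq on GRCm38.p6, whereas the probe coordinates of the files are on mm8. Of 32 ligand and receptor names 25 matched the table, with 29 promoters of 32851, and Tnfrsf10b, Tnfrsf11b, Tnfrsf22, Tnfrsf26, Tnfsf12, Tnfsf4 and Tnfsf9 did not. Motifs were searched on both strands. The letters GAAANNGAA, as in an interferon-stimulated response element, were in 7.13% of all promoters, in 2 of 9 ligand promoters and in 4 of 20 receptor promoters. The letters TGANTCA, as in an AP-1 site, were in 6.75% of all promoters, in 2 ligand and in 2 receptor promoters. The letters GGANNTTCC, as in a kappaB site, were in 3.59% of all promoters and in 0 of the 29, and TATAAA was in 12.4% of all promoters, in 2 ligand and in 2 receptor promoters. Capitals mark a match to these letters on either strand, as description only.
Tnfrsf14 (chr4:154928078-154928327, minus strand) and Tnfrsf1b (chr4:145246871-145247120, minus strand) are the member receptors with the largest rise at 12 h in both macrophages, with GAAANNGAA starting 63 and 9 bases before the start. Tnfsf14 (chr17:57194182-57194431, minus strand) has TGANTCA 160 bases before the start, and Tnfsf10 (chr3:27316827-27317076, plus strand), the member ligand that rose most at 12 h, has none of these letters in this window.
Tnfrsf14: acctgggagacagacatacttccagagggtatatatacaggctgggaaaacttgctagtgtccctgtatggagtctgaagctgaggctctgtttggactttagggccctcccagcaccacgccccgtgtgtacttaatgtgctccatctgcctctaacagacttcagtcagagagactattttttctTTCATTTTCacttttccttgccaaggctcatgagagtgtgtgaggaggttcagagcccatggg
Tnfrsf1b: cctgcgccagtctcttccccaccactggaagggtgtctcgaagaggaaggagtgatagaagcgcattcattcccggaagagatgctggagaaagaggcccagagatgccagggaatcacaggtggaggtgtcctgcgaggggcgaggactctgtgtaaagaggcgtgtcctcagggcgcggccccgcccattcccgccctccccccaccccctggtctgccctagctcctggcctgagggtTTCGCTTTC
Tnfsf14: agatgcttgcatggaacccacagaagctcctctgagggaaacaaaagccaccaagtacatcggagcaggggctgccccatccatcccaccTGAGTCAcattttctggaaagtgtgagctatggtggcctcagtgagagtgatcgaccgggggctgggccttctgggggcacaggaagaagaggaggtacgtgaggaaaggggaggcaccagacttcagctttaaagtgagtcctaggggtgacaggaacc
Tnfsf10: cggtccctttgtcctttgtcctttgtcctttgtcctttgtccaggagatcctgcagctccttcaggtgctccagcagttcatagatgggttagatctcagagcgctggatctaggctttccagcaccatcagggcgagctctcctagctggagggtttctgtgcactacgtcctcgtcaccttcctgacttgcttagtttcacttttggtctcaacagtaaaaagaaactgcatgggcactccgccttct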

How the data were processed

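Gene expression was measured in 12 conditions of EPM, BMDM and B cells, each with 2 replicates in the Cy5 and Cy3 channels of 1 Agilent array. The authors deposited scanner files with spot intensity and background from Agilent Feature Extraction 9.5.3.1 and a file of normalized intensity on a linear scale for 38516 probes, whose normalization was not stated. No column of the authors' comparisons was used, and the study's text gives more replicates per group than the 2 used here.

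Of 43379 spots that were not controls, mean signals were corrected with normexp (offset 50), normalized by loess within and by Aquantile between arrays, and read as log2 values per channel. Spots called outliers were set missing (134 missing values among the genes tested), and spots of a probe were averaged. Of 41174 probes 34473 carried 1 of 21313 gene symbols, by a rule for symbols that was loosened after a first run and changed no member, and the probe with the highest mean stood for its gene. The fit in limma 3.58.1 (R 4.3.3, data.table version 1.17.8, statmod 1.5.0) had 12 coefficients, with 12 residual degrees of freedom, and adjusted p-values by Benjamini-Hochberg over all genes tested, with a threshold of 0.05. It was tested on simulated data.

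Between 57.45% and 61.51% of probes were well above background in B cell channels, between 59.97% and 64.95% in EPM and between 58.23% and 61.24% in BMDM. Over 85 bright probes with repeated spots, the channels of an array differed with a standard deviation of 0.118 to 0.187, while the spots gave standard errors of 0.022 to 0.0325. The dye pairs the channels across arrays: over genes, Cy5 minus Cy3 was correlated in all 66 pairs of arrays (r from 0.267 to 0.627, median 0.436), so a fit with the dye as replicate block was made.

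The members and lists were chosen with earlier results of these data known. Named genes were, per KLA comparison, members past the threshold with a log2 change of at least 1 in size, or up to 3 per class, up to 4 per direction and class between controls, and 3 per direction for differences of changes. The 3 genes with the largest changes past the threshold of each list were named per macrophage comparison. Full values were given for members with a change of at least 2 in a macrophage comparison, and other names are marked as chosen after their values were seen. Alternatives were an offset of 16, processed signal, quantile or no normalization between arrays, the authors' table, other filters, the mean of probes, the replicate block, cell types fitted alone, array means, centring, a threshold of 0.01, exchanged B cell labels and leaving out each replicate.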

Additional observations from a re-analysis of the deposited data

Results flagged for a closer look

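In 12 cases, covering 10 members, the change after KLA differed between EPM and BMDM by a test of the difference of the 2 log2 changes. At 1 h the differences were 1.26 for Tnfsf9, 1.18 for Tnfsf14, 0.35 for Tnfrsf1b, -0.47 for Tnfrsf22, -0.415 for Tnfsf12 and -0.39 for Tnfrsf13c. At 12 h they were 1.56 for Tnfsf14, 1.06 for Tnfsf9, 0.90 for Tnfrsf11b, -1.14 for Tnfrsf11a, -1.03 for Tnfsf4 and -0.89 for Tnfsf12-tnfsf13. They are the 3 largest past the threshold in each direction and at each time, of 6 members called at 1 h and 19 at 12 h. On its other probe, the 1 h difference of Tnfrsf1b was -0.0439 (adjusted p = 0.923). With the processed signal, the 12 h difference of Tnfsf4 was 1.55. Array means called none of these differences, and without the B cell arrays only that of Tnfsf4 at 12 h. Leaving out single replicates ended the 1 h call of Tnfrsf13c. The EPM control was untreated at 1 h, the BMDM control DMSO, and each group was 1 array.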

How the results depend on the processing

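Of 1247 values of named members under the alternatives, 1170 kept their direction and their side of the threshold, 75 kept their direction and lost their call, 33 of them with array means, 18 with array means without the B cell arrays and 16 without 1 replicate, and 2 reversed. The difference of the 12 h changes of Tnfsf4 was 1.55 with the processed signal, and the 12 h change of Tnfrsf19 in B cells was -0.0835 with exchanged labels; the cause was not tested.

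Numbers of members called moved as follows. In B cells at 1 h, where 0 were called (limma, 6 at an unadjusted p under 0.05), 1 was called with an offset of 16, 3 with processed signal, 1 without normalization between arrays, 7 in the authors' table, 1 with the mean of probes, 3 with the replicate block and 11 with exchanged labels. In B cells at 12 h, where 3 were called, 11 were called in the authors' table, 6 with the mean of probes, 5 with the replicate block and 11 with exchanged labels. The authors' columns for B cells at KLA 1 h and at DMSO 12 h match each other's channels, so that table changed the labels as well as the normalization. In EPM at 1 h, 10 were called with the mean of probes and 10 with the replicate block, where 6 had been. Their causes were not tested. The replicate block changed no call of a member other than those given, and ended none.

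With detection required in all channels, 12 members were left to test, and fewer were called: 6 in EPM and 9 in BMDM at 12 h, 6 in BMDM at 1 h, 0 in B cells at 12 h by limma, 7 for EPM against BMDM, 10 and 9 for B cells against EPM and BMDM, and 3 and 8 for the differences of changes at 1 h and 12 h. The median over all genes in EPM at 12 h was then -0.11. With array means, which leave 3 residual degrees of freedom, 3 were called in EPM and 2 in BMDM at 1 h, 10 in EPM at 12 h, 0 in B cells at 12 h (limma, 1 at an unadjusted p under 0.05), 9 for EPM against BMDM, and 0 for either difference of changes. Without the B cell arrays, an alternative chosen after seeing the data, 3 were called in BMDM at 1 h, and 0 and 1 for the differences of changes at 1 h and 12 h (limma, 3 and 11 at an unadjusted p under 0.05).

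Without each replicate in turn, the lone channel being taken to vary like the other groups, the numbers called were 4 to 7 in EPM at 1 h, 16 to 18 in EPM at 12 h, 9 to 11 in BMDM at 1 h, 17 to 19 in BMDM at 12 h, 0 to 0 in B cells at 1 h and 2 to 3 at 12 h. They were 14 to 15 for EPM against BMDM, 20 to 21 and 21 to 23 for B cells against EPM and BMDM, and 5 to 7 and 17 to 19 for the differences of changes.

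Each condition was 1 array and each cell type 1 slide, so the tests do not cover variation between arrays. Median signal over background was 2.058 in B cells, 2.307 in EPM and 2.264 in BMDM, which limits what can be said of dim members such as Tnfsf8, Tnfrsf8 and Tnfrsf9. Probes of a member disagreed in at least 1 comparison for Tnfsf13b, Tnfrsf9, Tnfrsf13b, Tnfrsf1b, Tnfrsf21 and Tnfsf5ip1, among others, and no protein was measured.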

Other observations

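Tnfsf5ip1, the proteasome assembly chaperone whose name fits the rule, was bright in all groups and fell in BMDM after 12 h of KLA. Its log2 levels were 10.92 and 10.85 in BMDM at DMSO 12 h and 9.60 and 9.65 at KLA 12 h, without overlap, a change of -1.26 (adjusted p = 3.46e-09), and it fell on its other probe too (adjusted p = 2.02e-08). In EPM at 1 h its change was -0.49 (adjusted p = 0.0013), but -0.0235 on its other probe (adjusted p = 0.893) and not called with array means (adjusted p = 0.254). In EPM at 12 h its change was -0.37 (adjusted p = 0.0054), -0.41 on its other probe (adjusted p = 0.0011) and not called with array means (adjusted p = 0.21), and its change in BMDM at 1 h was -0.13 (adjusted p = 0.412). In B cells all channels lay between 10.88 and 11.16.

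At the early controls, more of the adaptors and transducers of the family were higher than lower in B cells against macrophages. Of 21, 16 were higher and 2 lower in untreated B cells against untreated EPM, with a median difference of 1.65, beside 38.5% and 38.7% of all genes. Against BMDM at DMSO 1 h, 15 were higher and 5 lower, with a median of 1.26, beside 37.4% and 39.2% of all genes. The medians over all genes were -0.01 and -0.03. Between EPM and BMDM, 6 were higher in EPM and 12 lower, with a median of -0.35, beside 28.5% and 29.3% of all genes. Cell type and slide cannot be told apart in these values.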
